A study of Mus musculus with 12 samples.

Results

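The heat shock protein and chaperone genes described here were 82 of the 21900 protein-coding genes on chromosomes 1 to 19 of the mouse mm10 annotation. They were chosen by symbol alone: Hsp followed by a letter or digit, leaving out Hspg2 and Hspbap1, and Dnaja, Dnajb, Dnajc or Cct followed by a digit. The set held 17 genes of the HSP90, HSP70 and HSP110 families, 2 of the mitochondrial HSP60 and HSP10 chaperonin, 8 small heat shock proteins, 4 DNAJA, 13 DNAJB and 28 DNAJC co-chaperones, 9 Cct genes and Hspbp1, which encodes a binding protein of HSP70.

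HSP70 proteins bind exposed hydrophobic stretches of unfolded proteins and release them in cycles of ATP hydrolysis. J-domain proteins (the DNAJ families) bring clients to HSP70 and stimulate that hydrolysis, nucleotide exchange factors such as the HSP110 proteins reopen the cycle, and HSP90 finishes the folding of kinases and receptors. The CCT ring folds actin and tubulin, HSP60 with HSP10 folds proteins imported into mitochondria, and small heat shock proteins hold aggregating proteins without ATP. In neurons, which do not divide, these systems are known for protein folding at synapses and for handling aggregation-prone proteins.

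5-methylcytosine (m5C) is a methylated base of RNA. It was mapped by MeRIP-seq, in which RNA is broken into fragments, fragments carrying m5C are captured with an antibody, and the captured RNA is compared with unselected input RNA. The tissue was hippocampus of female wild-type (WT) C57BL/6 mice in 2 groups: aged mice of 18 months, whose label reads natural aging, and young mice of 3 months. Each group had 3 immunoprecipitated libraries with their 3 inputs and so 3 peak lists. Nothing in the labels states that the 3 samples of a group came from separate animals, so every p below measures the spread between samples, which may be technical, and 3 lists against 3 cannot give a two-sided exact permutation p below 0.1. No comparison below could therefore pass 0.05.

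The aged lists held 15189, 14008 and 14294 peaks, against 9887, 8549 and 10392 peaks in the young lists. No read counts come with the lists, so the depth behind each peak is unknown. A gene was counted as having a peak where a peak on its strand overlapped its span by at least 1 base, and by that count 6777, 6342 and 6450 of all genes had a peak in the aged lists, against 5273, 4894 and 5442 in the young lists. All 10 markers of hippocampal and excitatory neurons, among them Prox1, Neurod6 and Camk2a, had a peak in at least 1 list, and for 8 of these every list held one. Of the 5 choroid plexus and ependyma markers, Ttr alone had peaks, in young replicate 3. The 5 inhibitory neuron markers had 3, 3 and 2 genes with a peak in the aged lists, against 0, 0 and 0 in the young lists (exact permutation p = 0.1), and Pvalb had none in any list. The 8 astrocyte markers had 7, 7 and 6 genes with a peak in the aged lists and 5, 3 and 6 in the young lists, the 7 oligodendrocyte markers 3, 3 and 4 against 4, 2 and 4, the 8 microglia markers 1, 2 and 2 against 1, 1 and 1, and the 6 endothelial and mural markers 4, 4 and 4 against 4, 3 and 4. The part of list length and of these marker differences in the results on the chaperone genes was not tested, apart from the shortened lists given beside them. In this bulk tissue, fewer cells of a type, less RNA per cell and a peak just under the authors' threshold cannot be told apart.

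Many chaperone genes are switched on through the heat shock element, inverted repeats of the unit GAA in front of their starts, to which the heat shock transcription factor HSF1 binds. The windows from 250 bases before to 50 bases after each start were searched for the pair of units GAANNTTC or TTCNNGAA and for the run of 3 units GAANNTTCNNGAA or TTCNNGAANNTTC. Each pattern reads the same way or as its partner on the other strand, and a run of 3 contains both pairs. RefSeq (GRCm38.p6) gave 86 windows for 67 of the 82 genes, and 22 of these windows (25.6%), from 20 genes, held a pair. The share was 15.1% of all 32851 windows in the table, which covers 27025 genes and not only the 21900 protein-coding ones. Windows can overlap and hold the same element, so these shares do not count separate sites. The run of 3 stood in 6 windows (6.98%), against 0.603% of all windows. The windows of Dnajb6 held the same run, as did those of Hsph1, and the Hspd1 and Hspe1 windows shared a run. The run thus concerned the 4 genes Dnajb6, Hspd1, Hspe1 and Hsph1. Every list held an m5C peak in each of these 4 genes. The same held for 8 of the 20 genes with a pair and for 15 of the 47 with none, and no test was made of this. A match is a description of the letters and not evidence of binding. The sequences below show genes with a run of 3 or a pair (Hspd1 and Hspe1, Hsph1, Dnajb6, Dnaja4), the near-identical copies Hspa1a and Hspa1b, and the 2 genes whose peaks stood in all lists of a single age (Dnajb2 and Hspb7), with element units in capitals. The Hspd1-Hspe1 sequence is the 215 bases between the divergent starts of the 2 genes, at chr1:55087933-55088147 on the plus strand. The others end at the base before a start on the gene's own strand, save the 30 bases of Dnajb6, which surround its element:
Hspd1-Hspe1: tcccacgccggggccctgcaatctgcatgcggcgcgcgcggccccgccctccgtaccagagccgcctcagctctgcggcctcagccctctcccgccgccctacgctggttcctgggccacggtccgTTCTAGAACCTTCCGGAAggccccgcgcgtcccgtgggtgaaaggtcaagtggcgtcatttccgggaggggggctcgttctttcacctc
Hsph1 (chr5:149636337-149636486, minus strand): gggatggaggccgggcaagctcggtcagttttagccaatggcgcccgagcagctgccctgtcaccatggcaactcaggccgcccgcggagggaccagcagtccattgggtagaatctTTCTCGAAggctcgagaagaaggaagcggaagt
Dnajb6 (chr5:29735844-29735873, plus strand): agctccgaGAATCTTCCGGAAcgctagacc
Dnaja4 (chr9:54699409-54699558, plus strand): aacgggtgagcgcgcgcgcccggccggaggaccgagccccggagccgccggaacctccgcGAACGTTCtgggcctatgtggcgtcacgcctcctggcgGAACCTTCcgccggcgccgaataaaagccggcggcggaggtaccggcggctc
Hspa1a (chr17:34972157-34972306, minus strand): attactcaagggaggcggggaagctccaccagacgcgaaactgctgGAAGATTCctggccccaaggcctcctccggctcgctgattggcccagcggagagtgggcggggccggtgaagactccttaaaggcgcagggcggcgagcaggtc
Hspa1b (chr17:34959239-34959388, minus strand): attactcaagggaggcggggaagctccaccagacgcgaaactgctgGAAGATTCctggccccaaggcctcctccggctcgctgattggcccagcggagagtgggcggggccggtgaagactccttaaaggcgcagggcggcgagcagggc
Dnajb2 (chr1:75236245-75236394, plus strand): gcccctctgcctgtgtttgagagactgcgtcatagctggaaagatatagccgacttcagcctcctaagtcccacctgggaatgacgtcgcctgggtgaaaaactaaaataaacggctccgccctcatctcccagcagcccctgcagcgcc
Hspb7 (chr4:141420629-141420778, plus strand): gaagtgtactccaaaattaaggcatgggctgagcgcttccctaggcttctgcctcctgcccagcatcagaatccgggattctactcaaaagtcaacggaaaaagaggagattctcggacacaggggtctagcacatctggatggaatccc

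The Hspd1-Hspe1 stretch, a promoter shared by the HSP60 and HSP10 genes, held 3 overlapping pairs in a single unbroken block. Dnaja4 held 2 separate pairs, the printed stretches of Hsph1, Hspa1a and Hspa1b held 1 pair each, and those of Dnajb2 and Hspb7 held 0. The run of 3 units of Hsph1 stood after its start and is not printed. The 150 bases before Hspa1a and before Hspa1b matched at 149 positions (99.3%).

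Of the 82 chaperone genes, 57 (69.5%) had an m5C peak in at least 1 list, against 43.5% of all genes, and 27 (32.9%) had one in all 6 lists, against 13.9% of all genes. The remaining 25 genes had no peak on their strand in any list. Long spans catch more peaks, so the shares are also given by span: under 5000 bases 12 of 23 chaperone genes (52.2%) had a peak, against 16.4% of all genes. Between 5000 and 20000 bases the shares were 76.0% of chaperone genes (19 of 25) and 38.6% of all genes. Between 20000 and 50000 bases they were 76.0% (19 of 25) and 52.0%, and above that 77.8% (7 of 9) and 69.2%. The share was above that of all genes in each class up to 50000 bases. Among the longest genes the gap was smallest, and that class held too few chaperone genes to show an excess.

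**Figure D1:**
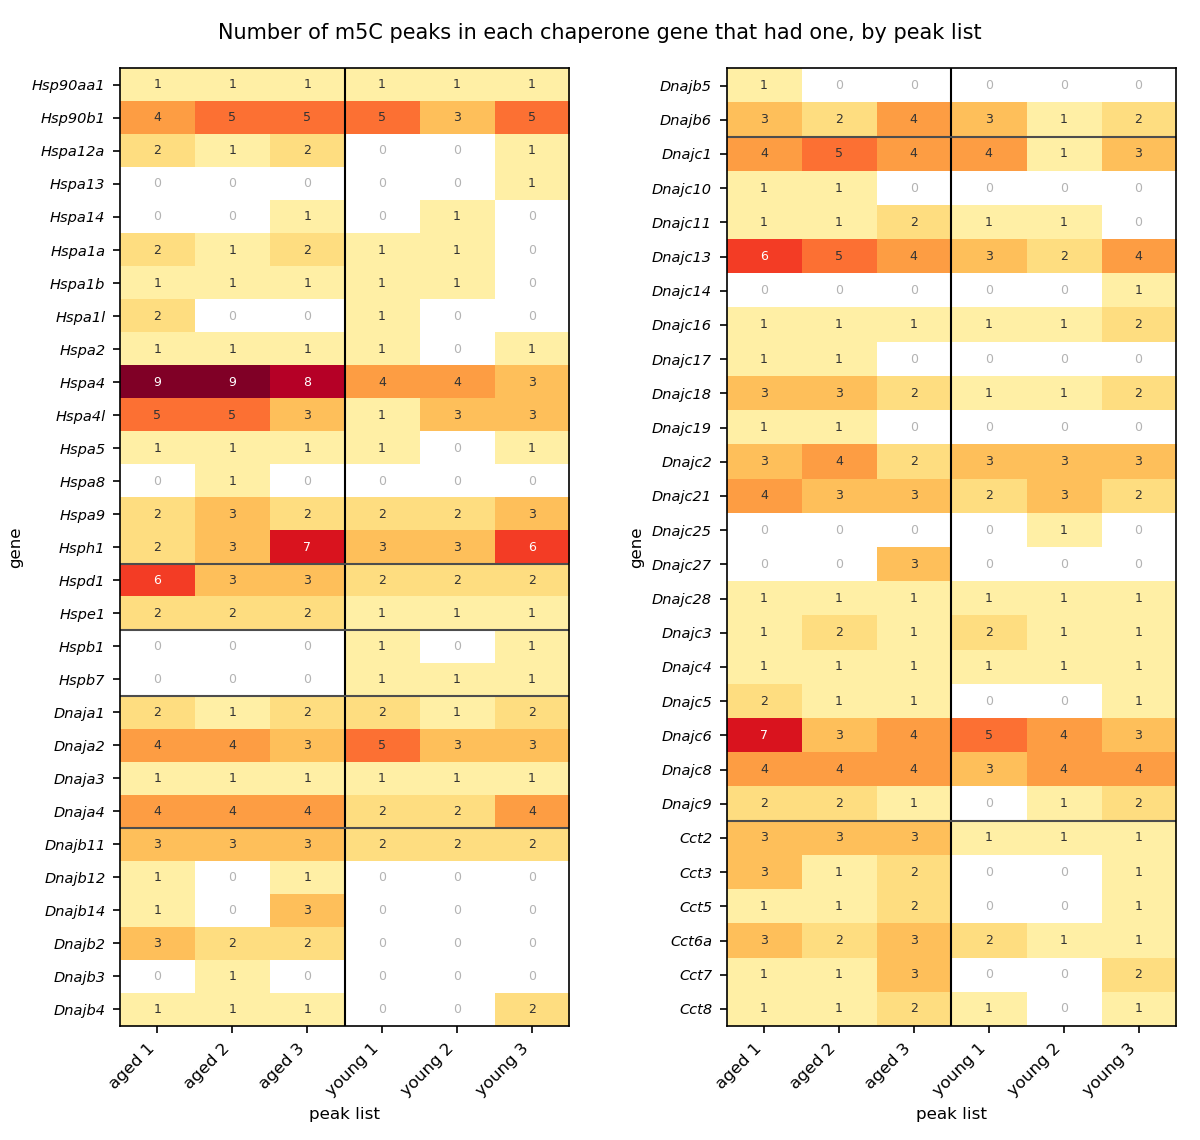
Number of m5C peaks in each of the 57 chaperone genes that had one, with genes in rows and the 6 peak lists in columns, aged lists left of the vertical line and young lists right of it. Horizontal lines separate the families, darker cells hold more peaks, and Hspa4 has the darkest cells, with 9, 9 and 8 peaks in the aged lists and 4, 4 and 3 in the young lists.

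More chaperone genes carried a peak in the aged lists. The counts were 48, 46 and 45 genes in the aged lists, against 36, 34 and 41 in the young lists, or 46.3 ± 1.53 and 37.0 ± 3.61 (SD, n = 3 each). Every aged list was above every young list, by 9.33 genes on average or 1.25-fold (two-sided exact permutation p = 0.1, the lowest possible; 0.210 after Benjamini-Hochberg adjustment over the 21 tests run on libraries). The count over all genes moved by the same 1.25-fold. Each list was then cut to its 8549 highest-scoring peaks, the length of the shortest. After the cut 35, 35 and 36 chaperone genes had a peak in the aged lists, against 33, 34 and 38 in the young lists. The groups overlapped (exact permutation p = 1.00). Over all genes the same cut left 4252, 4279 and 4252 genes with a peak in the aged lists, against 4629, 4894 and 4601 in the young lists. There every aged list was lower. The share of chaperone genes with a peak, divided by that of all genes, was 1.89, 1.94 and 1.86 in the aged lists, against 1.82, 1.86 and 2.01 in the young lists (exact permutation p = 1.00).

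**Figure D2:**
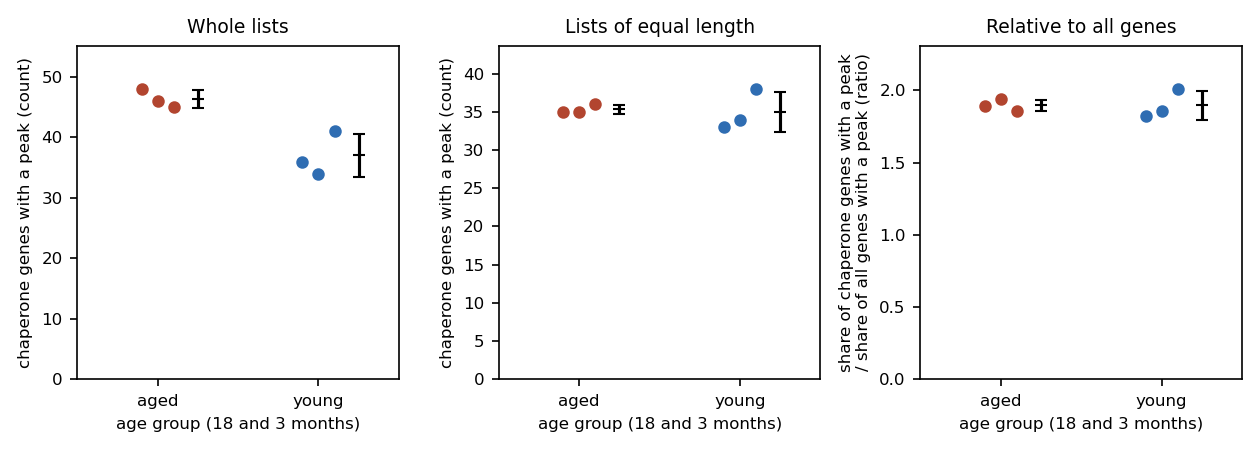
Chaperone genes with an m5C peak in each aged (left) and young (right) library: the count in the whole lists, the count in lists of equal length, and the share of chaperone genes with a peak divided by that of all genes. Points are libraries and bars the mean ± SD (n = 3 each), and only the first panel shows groups that do not overlap.

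The number of peaks in the set behaved alike. The aged lists had 119, 104 and 112 peaks in chaperone genes, against 72, 60 and 83 in the young lists, a mean difference of 40.0 peaks with no overlap (exact permutation p = 0.1, adjusted 0.210). As a percentage of all peaks of a list these were 0.783, 0.742 and 0.784% in the aged lists, against 0.728, 0.702 and 0.799% in the young lists, which overlapped (exact permutation p = 0.6). With lists of equal length the counts were 70, 73 and 70 in the aged lists and 69, 60 and 78 in the young lists. The median width of these peaks was 192 ± 9.24 bases in aged libraries and 194 ± 8.50 bases in young libraries (SD, n = 3 each; exact permutation p = 0.7). Peaks centred in the first 1000 bases of a span made up 9.24, 7.77 and 8.93% of the chaperone peaks of the aged lists, against 11.3, 11.7 and 9.76% in the young lists. Every aged value was lower (exact permutation p = 0.1, adjusted 0.210), but with lists of equal length the difference had the other sign, at 0.538 percentage points. Over the peaks of all genes the shares were 9.59, 10.6 and 9.35% in the aged lists, against 8.51, 9.13 and 9.04% in the young lists, so there every aged list was higher. In the last 1000 bases the shares were 10.2 ± 0.672% in aged libraries and 9.08 ± 2.36% in young libraries (SD, n = 3 each; exact permutation p = 0.5).

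Single genes that separated the ages were few. One chaperone gene, Dnajb2, had a peak in each of the 3 aged lists and in no young list, which is 1.75% of the 57 genes with a peak, against a background of 4.24% of the 9530 genes with a peak in any list. One gene, Hspb7, had a peak in all 3 young lists and no aged list, against a background of 0.808%. More peaks in each aged list than in each young list were found in 6 genes (Hspa4, Hspd1, Hspe1, Dnajb11, Dnajb2 and Cct2), 10.5% of the 57 against a background of 11.8%. The opposite was found in Hspb7 alone, against a background of 0.955%. More aged than young lists had a peak in 23 of the 57 genes (40.4%, against 42.7% of all genes with a peak), fewer in 5 (8.77%, against 17.0%) and as many in 29. The counts of restricted genes can only stay or rise when a list is left out, because the rule then asks for fewer lists. Without young replicate 3 the aged-restricted genes numbered 7, without aged replicate 2 they numbered 3 and without aged replicate 3 they numbered 4. The young-restricted genes numbered 2 without young replicate 2. No share of all genes under the loosened rule is given beside these counts.

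The same count was made over consensus regions, in which overlapping peaks of the 6 lists were joined. The chaperone genes held 187 such regions. A peak in all 6 lists was found in 33 regions of 24 genes, which was 17.6% of the chaperone regions. It was also 17.6% of the 24501 regions joined from all peaks, whether in a gene or not, which form the background here. In 22 of the 33 the peak had the same first and last base in every list. Regions found in every aged list and in no young list numbered 7 (3.74%, background 5.13%), with 4 in Hspa4, 2 in Dnajb2 and 1 in Hspa9. The reverse was found in 3 regions (1.60%, background 0.637%), in Hspa9, Dnajc6 and Hspb7. The aged count can likewise only stay or rise when a list is left out. It was 14 without aged replicate 2, 16 without aged replicate 3 and 15 without young replicate 3. No share of all regions under the loosened rule is given beside these counts. A single list gave 67 regions (35.8%, against 34.7% of all regions), 52 of them from an aged list and 15 from a young list. Scores are the authors' value for each peak. Where aged and young scores stand side by side, no difference with age is read from them. Over all peaks of a list the median scores were 143, 144 and 142 in the aged lists and 137, 117 and 122 in the young lists. Over the regions found in all 6 lists they were 1077, 604 and 748 in the aged lists and 461, 268 and 391 in the young lists. Over the regions found in a single list the medians were 76.6, 71.8 and 67.0 in the aged lists and 88.8, 222 and 80.1 in the young lists. These medians rest on 20, 11 and 21 peaks in the aged lists and on only 2, 5 and 8 in the young lists.

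Among the 17 genes of the HSP90, HSP70 and HSP110 families, 15 had a peak in some list, and 12, 12 and 12 had one in the aged lists, against 11, 9 and 10 in the young lists (exact permutation p = 0.1, adjusted 0.210). This was 1.20-fold, beside 1.25-fold for all genes, and with lists of equal length the counts were 11, 10 and 11 against 10, 9 and 9, which touched at 10 (exact permutation p = 0.2). Hsp90aa1, the stress-inducible cytosolic HSP90, had a single peak in every list, in the joined region chr12:110690605-110691649 across the end of its span. Its score was 3100 in all 6 lists, a value at which many of the highest peaks of these lists stand. Hsp90b1, the HSP90 of the endoplasmic reticulum (GRP94), had 4, 5 and 5 peaks in the aged lists and 5, 3 and 5 in the young lists, with a best score of 3100 in each. Its peak at chr10:86705307-86705509, on the start of the span, was in all 6 lists with identical ends. Hsp90ab1, the constitutive cytosolic HSP90, had no peak in any list. Both peak-bearing HSP90 genes therefore showed the same presence at both ages.

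The HSP110 proteins are nucleotide exchange factors of HSP70, and Hspa4 among them held the most regions of any chaperone gene. Hspa4 had 9, 9 and 8 peaks in the aged lists, against 4, 4 and 3 in the young lists, and the groups did not overlap. Its 11 regions included 4 found in each aged list and in no young list: chr11:53283529-53283662, chr11:53280468-53280712, chr11:53272727-53272878 and chr11:53259814-53261815, the last of which reaches the end of the span. The scores at the last were 88.5, 564 and 635 in the aged lists. In contrast, the peak at chr11:53269688-53269869 was in all 6 lists, with scores of 3039, 2638 and 2704 in the aged lists and 2135, 1268 and 907 in the young lists. In lists of equal length none of these 4 regions was restricted to the aged lists, and 1 region of the chaperone genes was, the last one of Dnajb2. Hspa4l, a related exchange factor, had 5, 5 and 3 peaks in the aged lists against 1, 3 and 3 in the young lists, which overlapped. Hsph1 (HSP105) had 2, 3 and 7 peaks in the aged lists against 3, 3 and 6 in the young lists, spread over 10 regions, of which 1 was in all 6 lists. Its best score was 3100, 2318 and 3025 in the aged lists and 1977, 553 and 1106 in the young lists.

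**Figure D3:**
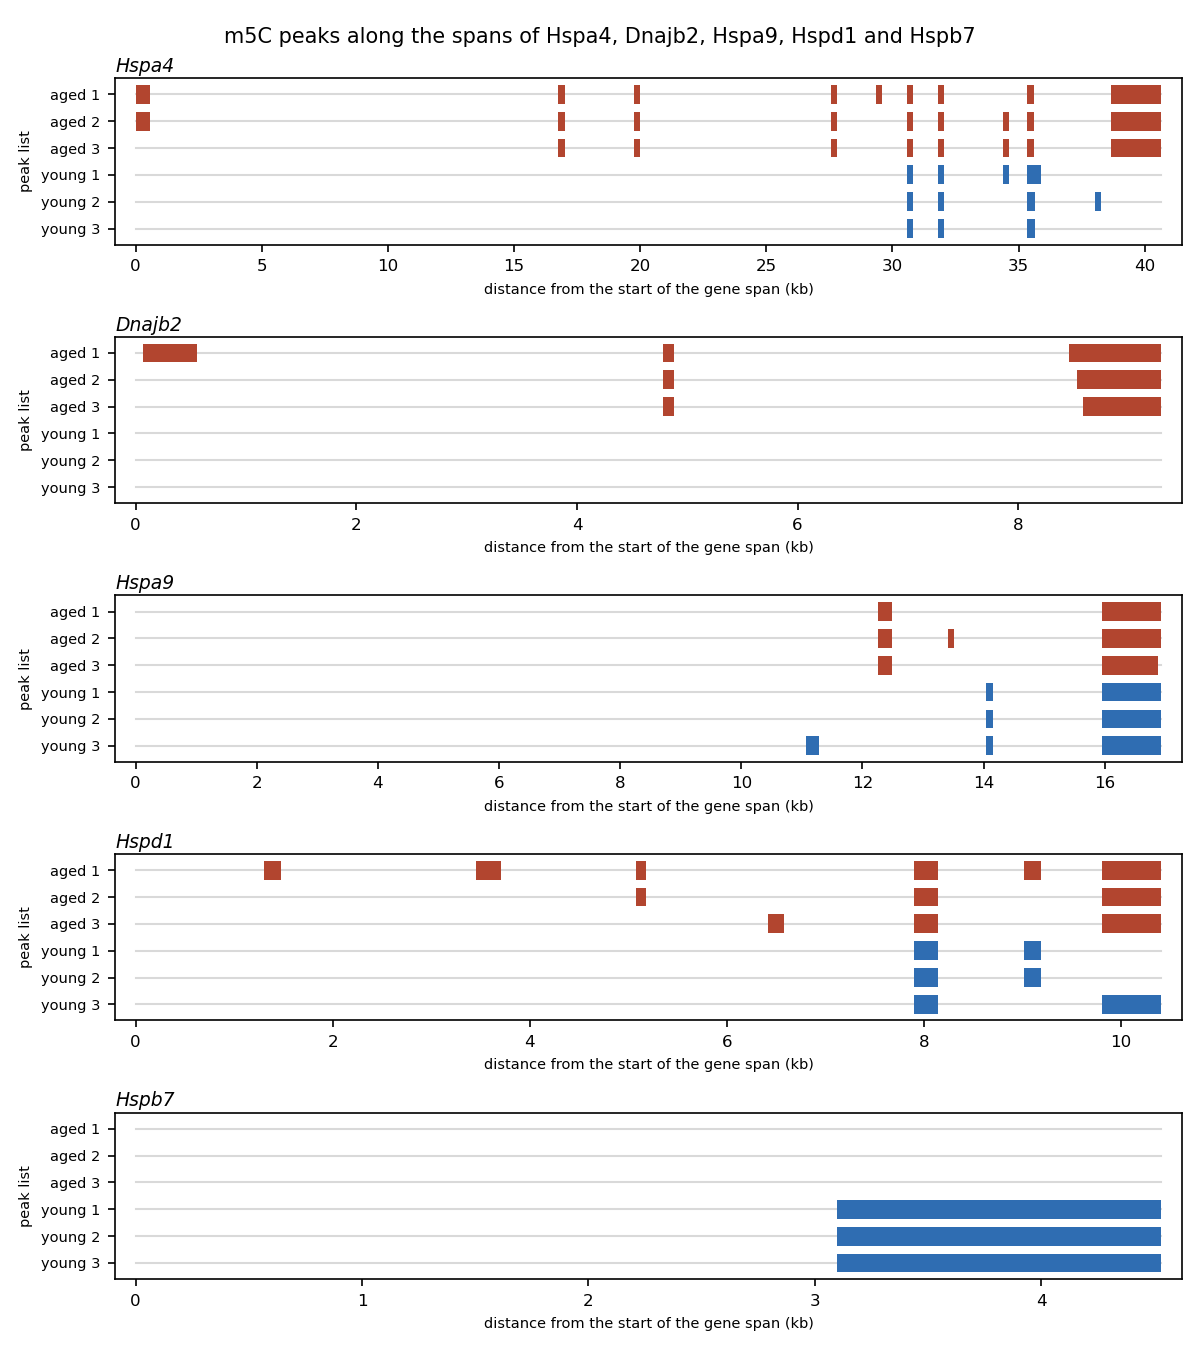
m5C peaks of each list along the spans of Hspa4, Dnajb2, Hspa9, Hspd1 and Hspb7, with distance from the start of the span in kb and the aged lists above the young ones. Each bar is a peak, and very narrow ones are drawn slightly wider than they are. Hspa4 shows bars in every row, and at some places in all 3 aged rows with none in the young rows. Dnajb2 shows bars in the aged rows alone, and Hspb7 in the young rows alone.

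The HSP70 genes themselves differed among each other. Hspa8, the constitutive cytosolic HSP70 (HSC70), had 1 peak, in aged replicate 2, with a score of 163. Hspa5, the HSP70 of the endoplasmic reticulum (BiP), had a peak at chr2:34775551-34776531 in all 3 aged lists (scores 1378, 1660 and 1032) and in young replicates 1 and 3 (735 and 3183). Hspa2, best known from germ cells, had a peak in all 3 aged lists, with scores of 1063, 605 and 729, and in young replicates 1 and 3, with 79.7 and 95.2. The inducible copies Hspa1a and Hspa1b each had a peak in all 3 aged lists and in young replicates 1 and 2. Reads of such near-identical copies can be placed on either, so the split between them is uncertain. Hspa1l, next to them, had peaks in aged replicate 1 and young replicate 1. Hspa12a, an atypical member of the family, had 2, 1 and 2 peaks in the aged lists and 0, 0 and 1 in the young lists. Hspa14, a ribosome-associated HSP70, had a peak in aged replicate 3 and young replicate 2, Hspa13 had a peak in young replicate 3 alone, and Hspa12b had none.

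Hspa9, the mitochondrial HSP70 (mortalin), kept its number of peaks, with 2, 3 and 2 in the aged lists against 2, 2 and 3 in the young lists, but not their places. The joined region chr18:34937414-34938393, on the end of the span, had a peak in all 6 lists, with scores of 1808, 1578 and 1234 in the aged lists and 1476, 266 and 2417 in the young lists. A peak at chr18:34941865-34942092 was in the aged lists alone (scores 88.5, 128 and 106). A peak at chr18:34940197-34940314 was in the young lists alone (scores 90.9, 107 and 89.3). Hspa9 was the single chaperone gene with a region restricted to each age, and both of these regions had scores far under that of the shared peak of the same list.

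Hspd1 (HSP60) and Hspe1 (HSP10) had a peak in all 6 lists. Hspd1 had 6, 3 and 3 peaks in the aged lists against 2, 2 and 2 in the young lists, without overlap, and its peak at chr1:55080102-55080347 was in all 6. Hspe1 had 2 peaks in each aged list and 1 in each young list. Its region at chr1:55088132-55088412, joined from peaks of all 6 lists, had scores of 196, 230 and 222 in the aged lists and 55.8, 204 and 80.4 in the young lists. The peaks of aged replicates 1 and 2 and of young replicates 1 and 3 began in the stretch printed above and ran over the Hspe1 start, while those of aged replicate 3 and young replicate 2 began 162 bases after it.

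Of the 8 small heat shock proteins, 2 had a peak, and both had it in young lists. The counts were 0, 0 and 0 genes in the aged lists, against 2, 1 and 2 in the young lists (exact permutation p = 0.1, adjusted 0.210), and with lists of equal length 0, 0 and 0 against 1, 1 and 2. This was the single family whose counts ran against the direction of all genes. Hspb7, a small heat shock protein known from heart and muscle, had its peak at chr4:141423879-141425311, on the end of the span, with identical ends in the young lists and scores of 147, 59.0 and 95.8. Hspb1 (HSP27), which guards actin filaments under stress, had a peak in young replicates 1 and 3, with scores of 60.6 and 66.0. Within their lists these peaks stood at percentiles 52.5, 12.6 and 40.0 for Hspb7, and in young replicates 1 and 3 the Hspb1 peak stood below that of Hspb7. No peak was found in Hspb2, Hspb3, Hspb6, Hspb8, Hspb9 or Hspb11.

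All 4 DNAJA genes, the J-domain proteins closest to the bacterial DnaJ, had a peak in all 6 lists. Dnaja2 had 4, 4 and 3 peaks in the aged lists against 5, 3 and 3 in the young lists, and its best score was 3142, 2637 and 2134 in the aged lists and 1975, 952 and 1335 in the young lists. Dnaja1 had 2, 1 and 2 peaks at either age, and Dnaja3, the mitochondrial member, had 1 peak in every list. Dnaja4 had 4, 4 and 4 peaks in the aged lists against 2, 2 and 4 in the young lists, and peaks of all 6 lists lay at the start that follows the printed stretch.

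**Figure D4:**
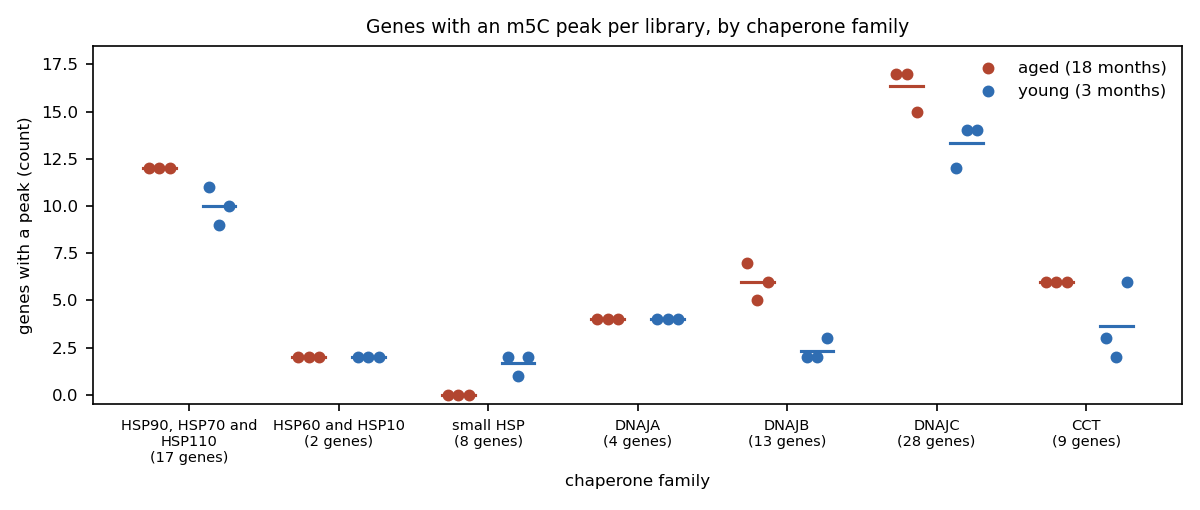
Genes of each chaperone family with an m5C peak, per library, with the count on the vertical axis and aged libraries left of young ones in each family. Points are libraries and short lines their means. The DNAJB family shows 7, 5 and 6 genes in the aged libraries and 2, 2 and 3 in the young libraries, while the small heat shock proteins are at 0 in the aged libraries.

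Among the families with a peak at both ages, DNAJB had the widest proportional difference: 7, 5 and 6 of its 13 genes had a peak in the aged lists, against 2, 2 and 3 in the young lists, or 6.00 ± 1.00 and 2.33 ± 0.577 (SD, n = 3 each). The groups did not overlap (exact permutation p = 0.1, adjusted 0.210). With lists of equal length the counts were 3, 3 and 5 in the aged lists and 2, 2 and 3 in the young lists, which did overlap. Dnajb2 (HSJ1), a J-domain protein of neurons that binds ubiquitin, had 3, 2 and 2 peaks in the aged lists and 0, 0 and 0 in the young lists. Its regions at chr1:75241171-75241273 (scores 125, 86.5 and 135) and chr1:75244856-75245692 (scores 153, 166 and 183) had peaks in all 3 aged lists, and the second of them lay on the end of the span, and the gene was aged-restricted in lists of equal length too. Dnajb12 and Dnajb14, J-domain proteins of the endoplasmic reticulum membrane, had a peak in aged replicates 1 and 3 alone. Dnajb4, a cytosolic member, had 1, 1 and 1 peaks in the aged lists and 0, 0 and 2 in the young lists. Dnajb6, a suppressor of polyglutamine aggregation, had 3, 2 and 4 peaks in the aged lists against 3, 1 and 2 in the young lists, and a peak at its start in all 6. Dnajb11 (ERdj3), a co-chaperone of BiP, had 3 peaks in each aged list and 2 in each young list. Dnajb5 had a peak in aged replicate 1 alone. The single peak of Dnajb3, in aged replicate 2, also lay in Ugt1a6b on the same strand. No peak was found in Dnajb1 (HSP40), Dnajb7, Dnajb8, Dnajb9 or Dnajb13.

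Of the 28 DNAJC genes, whose J-domain proteins serve many separate tasks, 20 had a peak, and 11 had a peak in every list. The aged lists had 17, 17 and 15, against 12, 14 and 14 in the young lists, without overlap (exact permutation p = 0.1, adjusted 0.210). With lists of equal length the sign turned, with 11, 13 and 9 genes in the aged lists and 12, 14 and 13 in the young lists. In the count over all genes, every aged list was below every young list at that length. Dnajc6 (auxilin), which takes the clathrin coat off vesicles in neurons, had 7, 3 and 4 peaks in the aged lists against 5, 4 and 3 in the young lists, in 10 regions. Its strongest peak, chr4:101636758-101636900, scored 2139, 1477 and 2304 in the aged lists and 1184, 1096 and 1091 in the young lists. Its region at chr4:101531998-101532062 was in the young lists alone, with scores of 91.2, 96.0 and 74.1. Dnajc13 (RME-8), which acts in endosomal sorting, had 6, 5 and 4 peaks in the aged lists against 3, 2 and 4 in the young lists. The groups touched at 4 peaks. Dnajc5, the cysteine-string protein of synaptic vesicles, had 2, 1 and 1 peaks in the aged lists against 0, 0 and 1 in the young lists.

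Other DNAJC genes with high scores included Dnajc21, Dnajc2 and Dnajc8. Dnajc21, known for ribosome biogenesis, had its peak at chr15:10461120-10461424 in all 6 lists, with scores of 3100, 2811 and 3100 in the aged lists and 2528, 1560 and 2105 in the young lists. Dnajc2 (zuotin), which acts at the ribosome with Hspa14, had 3, 4 and 2 peaks in the aged lists against 3, 3 and 3 in the young lists, and its best score was 1376, 1872 and 1386 in the aged lists against 1357, 90.4 and 1364 in the young lists. Dnajc8, a protein of the splicing machinery, had 4, 4 and 4 peaks in the aged lists against 3, 4 and 4 in the young lists, one of them at its very start in all 6 lists. Dnajc10 (ERdj5, a reductase of the endoplasmic reticulum), Dnajc17 and Dnajc19, a part of the mitochondrial import motor, had a peak in aged replicates 1 and 2 and in no other list. Dnajc1, Dnajc3, Dnajc4, Dnajc16, Dnajc18 and Dnajc28 had a peak in all 6 lists, Dnajc9 and Dnajc11 in 5, Dnajc27 in aged replicate 3 alone, Dnajc14 in young replicate 3 alone and Dnajc25 in young replicate 2 alone. Dnajc5b, Dnajc5g, Dnajc7, Dnajc12, Dnajc15, Dnajc22, Dnajc24 and Dnajc30 had none.

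Of the 9 Cct genes, 6 had a peak, all subunits of the chaperonin ring: 6, 6 and 6 in the aged lists, against 3, 2 and 6 in the young lists, with young replicate 3 level with the aged lists (exact permutation p = 0.4). Cct2 had 3 peaks in each aged list and 1 in each young list. Cct6a had 3, 2 and 3 in the aged lists against 2, 1 and 1 in the young lists, with best scores of 1544, 1704 and 2272 against 283, 1149 and 803. Cct3 had 3, 1 and 2 peaks in the aged lists against 0, 0 and 1 in the young lists. Cct5 had 1, 1 and 2 against 0, 0 and 1, and Cct7 had 1, 1 and 3 against 0, 0 and 2. In these 3 genes, as in Hspa12a, Dnajb4 and Dnajc5, the sole young list with a peak was replicate 3. Cct8 had a peak in all 3 aged lists and in young replicates 1 and 3, and Cct4, Cct6b and Cct8l1 had none. Hspbp1 had none either.

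In some list, the best peak of 21 chaperone genes stood above the 75th percentile of scores, and for 9 of the 21 (42.9%) it did so in every list: Hsp90aa1, Hsp90b1, Hspa4, Hsph1, Hspd1, Dnaja2, Dnajb6, Dnajc6 and Dnajc21. Over all genes that share was 38.6%. Above the 90th percentile these counts were 13 genes in some list and 4 in every list (30.8%, against 40.1% over all genes), the 4 being Hsp90aa1, Hsp90b1, Dnaja2 and Dnajc21. These ranks hold within each list and do not show a change between lists of different length.

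Partners of the chaperones were read from 7 lists of genes. Of 20 HSP90 co-chaperones, all of which had a peak in some list, 17, 16 and 16 had one in the aged lists, against 13, 11 and 11 in the young lists (exact permutation p = 0.1, adjusted 0.210). With lists of equal length the counts were 14, 14 and 12 against 12, 11 and 11, which touched at 12 (exact permutation p = 0.2). Over the 7 lists, 8 of the 89 genes with a peak (8.99%, against the background of 4.24%) had one in every aged list and in no young list, and 2 of the 8, Fkbp5 and Ppid, were so in lists of equal length too. None of the 89 had the reverse in the whole lists, against the background of 0.808%. At equal length, however, Tbcc, Clpx and Pdcl had a peak in every young list and in no aged list. No share of all genes at equal length is given beside these genes. Fkbp5, an immunophilin of steroid receptor complexes, had 2 peaks in each aged list and 0 in each young list, and Ppid (cyclophilin 40) had 2, 3 and 1 in the aged lists and 0 in each young list. Stip1 (HOP), which joins HSP70 to HSP90, had 4, 4 and 5 peaks in the aged lists against 2, 1 and 3 in the young lists, without overlap. The 16 prefoldin and CCT partners had 10, 11 and 10 genes with a peak in the aged lists against 7, 8 and 8 in the young lists (exact permutation p = 0.1, adjusted 0.210), and with lists of equal length 9, 6 and 6 against 6, 8 and 8. Tcp1, the subunit of the CCT ring whose symbol falls outside the Cct names, had 3, 3 and 1 peaks in the aged lists and 0 in each young list, and Uri1, a prefoldin-like protein, had 2, 1 and 1 against 0 in each. At equal length both had a peak in 2 aged lists and no young list. Tbcc, a tubulin cofactor, ran the other way, with 0, 1 and 0 peaks in the aged lists against 1, 1 and 1 in the young lists.

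The 23 genes of folding and quality control in the endoplasmic reticulum had 14, 15 and 15 with a peak in the aged lists, against 10, 11 and 12 in the young lists (exact permutation p = 0.1, adjusted 0.210), with 9, 12 and 12 against 10, 11 and 10 in lists of equal length. Sec62 had 6 peaks in every list, and Canx (calnexin) had 6, 6 and 8 in the aged lists against 4, 5 and 6 in the young lists. The 16 genes of the unfolded protein and integrated stress responses had 14, 13 and 11 with a peak in the aged lists against 9, 12 and 10 in the young lists (exact permutation p = 0.2, adjusted 0.382). Eif2ak3 (PERK) had 1, 2 and 1 peaks in the aged lists and Atf6b had 2, 2 and 1, with 0 in each young list for both. At equal length Eif2ak3 had a peak in 0 lists and Atf6b in 2 aged lists. Ern1 (IRE1) had 0 in each aged list and 1, 1 and 0 in the young lists. The 17 HSP70 exchange factors and co-chaperones, Hspbp1 among them, had 6, 10 and 8 with a peak in the aged lists against 7, 6 and 8 in the young lists (exact permutation p = 0.7). Bag3, which works with small heat shock proteins in autophagy, had 1 peak in each aged list and 0 in each young list, and none in any list at equal length, and St13 (HIP) had 9, 8 and 9 against 8, 8 and 8. The 17 mitochondrial quality control genes had 6, 7 and 5 against 6, 6 and 5 (exact permutation p = 1.00). Clpp, the protease of the matrix, had 1, 1 and 2 peaks in the aged lists and 0 in each young list, and its partner Clpx had 1, 0 and 0 against 1, 1 and 2. The 6 genes of the heat shock factor list had 1, 1 and 1 in the aged lists against 0, 0 and 2 in the young lists (exact permutation p = 1.00). In that list Hsf1, the main activator of chaperone genes, had 1 peak, in aged replicate 1, and Hsf2 and Hsf4 had none.

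**Figure D5:**
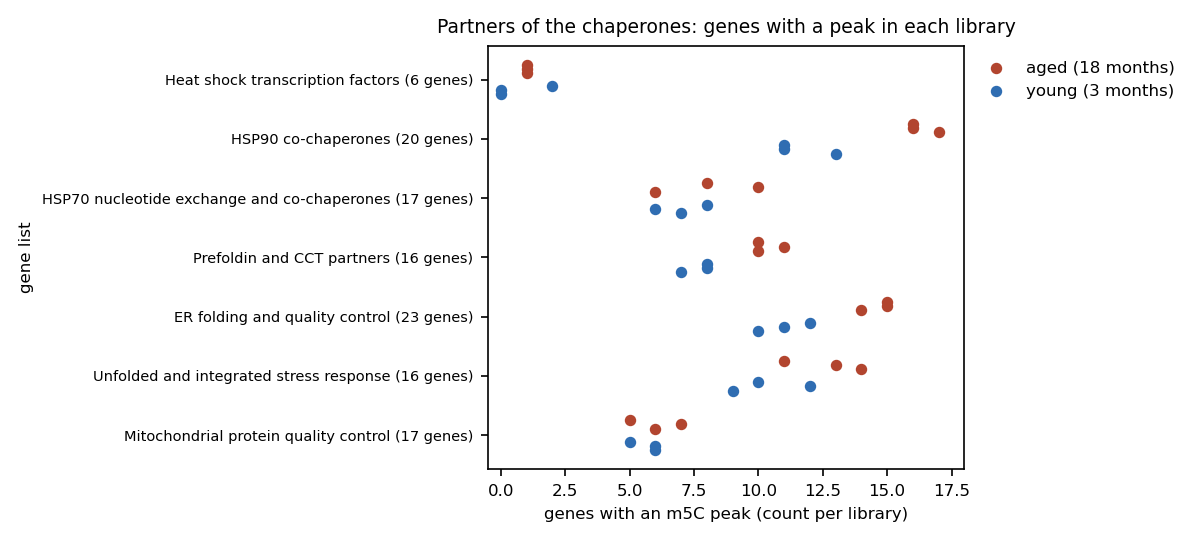
Genes with an m5C peak per library in 7 lists of chaperone partners, with the count on the horizontal axis, the lists down the page and aged libraries above young ones. Points are libraries. The HSP90 co-chaperones stand at 17, 16 and 16 in the aged libraries and 13, 11 and 11 in the young libraries.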

How the data were processed

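Per the submitters' processing notes, reads were trimmed with cutadapt 1.9.3 and aligned with HISAT2 2.0.4, and the build was mm10. The deposited lists hold peaks per library with strand and a score, which is the authors' value. Peak names carry MACS, with version and settings not given in the sources used here. A spreadsheet of methylated sites named in the labels was not analysed here. Gene spans came from RefSeq (GRCm38.p6). Strand came from the promoter table for 67 genes and from their own peaks for 8, and was unknown for 7 without peaks. Of 55329 peaks in a single span, 99.7% lay on the annotated strand. Exon positions were not used. Group means were compared with two-sided exact permutation tests in Python 3.11.15 (NumPy 2.4.6, pandas 2.3.3), checked on simulated data. Named genes were those restricted to an age or differing by at least 2 lists, the 5 with most regions and those with a restricted region. The genes with the 10 highest medians of the best score over all lists were named too. Others are named to account for every gene. The genes, lists and tests were chosen with earlier results of these data known. Alternatives were lists of equal length, scores at least the list median, at least 50% of the peak inside the span, strand ignored, peaks in 1 span only, regions joined at 50% overlap, each library left out, and a replicate block.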

Additional observations from a re-analysis of the deposited data

How the results depend on the processing

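Differences below are aged minus young means. With lists of equal length the DNAJC difference was -2 genes, that of the prefoldin list -0.333, of the stress response list -1.33, of the mitochondrial list -1, of DNAJA -0.667 and of HSP60 and HSP10 0.333, and the heat shock factor and HSP70 exchange lists came to 0. The share of peaks in the first 1000 bases moved to 0.538 percentage points, young-restricted genes to 2 and aged-restricted regions to 1. With only peaks scoring at least the list median, the percentage of peaks in chaperone genes differed by -0.0665, the ratio of shares by -0.0803, the last 1000 bases by -0.0916 points, the width by 5.83 bases, HSP60 and HSP10 by 0.667 and DNAJA by -0.333. Under that setting 2 genes were aged-restricted, 0 young-restricted and 17 in all 6 lists, with 4, 0 and 21 regions. The ratio of shares differed by -0.0105 with 50% of the peak inside the span, by -0.0607 without strand and by -0.0127 with peaks in 1 span only, and without strand 2 genes were young-restricted. No share of all genes or regions is given beside the restricted counts of these settings. The cause was not tested.

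Leaving out 1 library at a time gave ranges of -0.0364 to 0.0580 for the ratio of shares, -6.83 to 2.67 bases for the width, 0 to 1.00 for the heat shock factor list, 0 to 2.00 for the HSP70 exchange list and -0.167 to 0.833 for the mitochondrial list. Aged-restricted genes ranged over 1 to 7, young-restricted genes over 1 to 2 and aged-restricted regions over 8 to 16. Such restricted counts can only stay or rise, because leaving out a list loosens the rule. No share of all genes or regions under the loosened rule is given beside them. The difference in chaperone genes with a peak ranged over 7.83 to 11.3 genes.

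With a replicate block, in which same-numbered libraries are paired, the difference of 9.33 chaperone genes had an exact permutation p of 0.25, the lowest that 3 pairs allow. Pairing leaves each difference in means as it was, so no direction could change. The numbers do not pair the samples: the correlation of same-numbered libraries' deviations over regions was -0.0122, 0.00137 and 0.0164.

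The lists hold no counts, so an absent peak can be a call just under the authors' threshold, and neither methylation level nor expression can be read from them.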

Other observations

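Peaks on the strand opposite to a chaperone gene were 12 in 4 genes, and each was assigned to a gene on its own strand. Cct6b had such a peak in all 3 young lists and no aged list, at scores of 95.7, 86.7 and 208, which belonged to Zfp830. Dnajc7 had one in aged replicates 2 and 3 and young replicate 3, belonging to Nkiras2, Dnajc19 had one in aged replicate 2 and young replicate 3, belonging to Fxr1, and Hspd1 had 4, which belonged to Hspe1 across the shared start.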
